A study of Danio rerio with 12 samples.

Results

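The Hox gene clusters of the zebrafish were read out as every array probe whose RefSeq transcript belongs to a gene named hox, a cluster letter from a to d and a number. This rule found 115 probes for 47 genes, among 43603 probes and 14016 named genes in all. The RefSeq table lists 50 such genes. The pseudogene hoxa10ap and the genes hoxc10a and hoxc11b had no probe. Hox genes encode homeodomain transcription factors that give cells their position along the head-to-tail axis. They lie in clusters, and members at the same place in different clusters, called a paralog group, descend from 1 ancestral gene and share the number in their name. Within a cluster, low-numbered genes are switched on earlier and closer to the head, and high-numbered genes later and closer to the tail, an order known as collinearity.

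RNA came from pools of 18 to 35 whole wild-type AB embryos raised at 28.5 °C, and each pool was hybridised to 1 Agilent 1-colour array. The 4 groups had 3 arrays each. Embryos taken at 24 h after fertilization had received either PCSK7 plus p53 morpholinos or the control morpholino, and so had those taken at 6 h. Morpholinos are antisense oligonucleotides that block a chosen transcript for a limited time. Here 0.25 to 1.0 pmol of each was injected into the yolk sac at the 1 to 4 cell stage. PCSK7 is a secretory pathway protease that processes precursor proteins, and the series asks what its loss does to the embryo. The p53 morpholino was present only where the PCSK7 morpholino was, so every comparison of morpholinos holds both agents. With 0 probes named for pcsk7, the targeted transcript was not analysed here. The labels do not say that replicates came from separate clutches, so the p-values rest on a spread between pools that may be partly technical. The morpholino groups lay on different slides and scan sessions: all control arrays on slides 1 to 3 of one session, all PCSK7 plus p53 arrays on slides 4 and 5 of the other. No slide held both, so slide, session and morpholino cannot be told apart in any comparison of morpholinos.

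Signals are given as a percent of the 75th percentile of all non-control probes on the same array. That percentile was 1022 to 1087 intensity units on PCSK7 plus p53 arrays and 695 to 993 on control arrays at 24 h, and 634 to 730 and 403 to 513 at 6 h. On the log2 scale the PCSK7 plus p53 arrays were brighter by 0.31 at 24 h and by 0.58 at 6 h. A gene is represented by 1 probe, the one with the highest mean log2 signal over all 12 arrays, which need not be its brightest at 24 h. Levels of different probes cannot be set against each other. Differences are log2 values with the standard error (SE) of the limma fit over 12 arrays, and a gene is called when its Benjamini-Hochberg adjusted p over 36686 probes is under 0.05. In whole embryos, fewer cells of a type and less RNA per cell cannot be told apart.

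All 47 Hox genes were well above background on every array at 24 h, in both morpholino groups. At 6 h only 13 were so on all 3 PCSK7 plus p53 arrays and 14 on all 3 control arrays, while 24 and 27 were above background on no array of those groups. In control embryos all 47 were called higher at 24 h than at 6 h (background 48.3% of genes measured). In PCSK7 plus p53 embryos 46 were (background 47.6%), and the exception, hoxc6a, differed by 0.02. Most Hox genes counted as measured here through the 24 h group alone, which favours a higher value at 24 h. The background holds genes measured at either time, so these shares are not of like sets. The 14 genes measured at both times in control embryos were higher at 24 h by 0.75 to 5.34. For the 27 with no 6 h signal above background in control embryos, the 24 h level gives only a bound, at least 55.2-fold higher in the median. This ran from at least 1.93-fold for hoxa1a, an anterior gene, to at least 217-fold for hoxb3a, a hindbrain gene. The call of hoxa1a turned to lower when local background was subtracted from the spot. Each control slide held 1 array of each time, and on each of the 3 slides all 47 genes read higher at 24 h. That count includes the genes with no 6 h signal above background, so it is a description only.

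At 24 h the Hox genes of some paralog groups lay on the same side, and the side did not run in one order along the clusters. The genes of paralog groups 4 to 7, which act in the posterior hindbrain, the anterior spinal cord and the trunk, were all on the higher side in PCSK7 plus p53 embryos, with 13 of 13 differences above 0 and a median of 0.42. Those of paralog group 13, which act at the tail end, were on the lower side in 5 of 6 cases, with a median of -0.57. Groups 1 (4 of 4 above 0, median 0.20), 2 (0 of 2) and 3 (0 of 4, median -0.29) lay on different sides, with no gene called in the fit over 12 arrays. By the mean of a gene's kept probes, only 2 of the 4 genes of group 1 were above 0. The groups set apart here were chosen after the values were seen. Over all 47 genes 5 were called higher (10.6%; background 21.4% of 12504 genes measured) and 2 lower (4.26%; background 25.9%). In this fit both shares were below the background, and the median over Hox genes was 0.05 against -0.03 over all genes. The spread of each probe in this fit came from all 12 arrays, 6 h signals below background included. Its part in the low shares was not tested. With only the 24 h groups in the fit, 14 were called higher (background 23.4%) and 8 lower (background 27.6%). What follows describes the members. This fit showed no excess of calls, while in alternatives given below the share called higher was above the background.

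**Figure D1:**
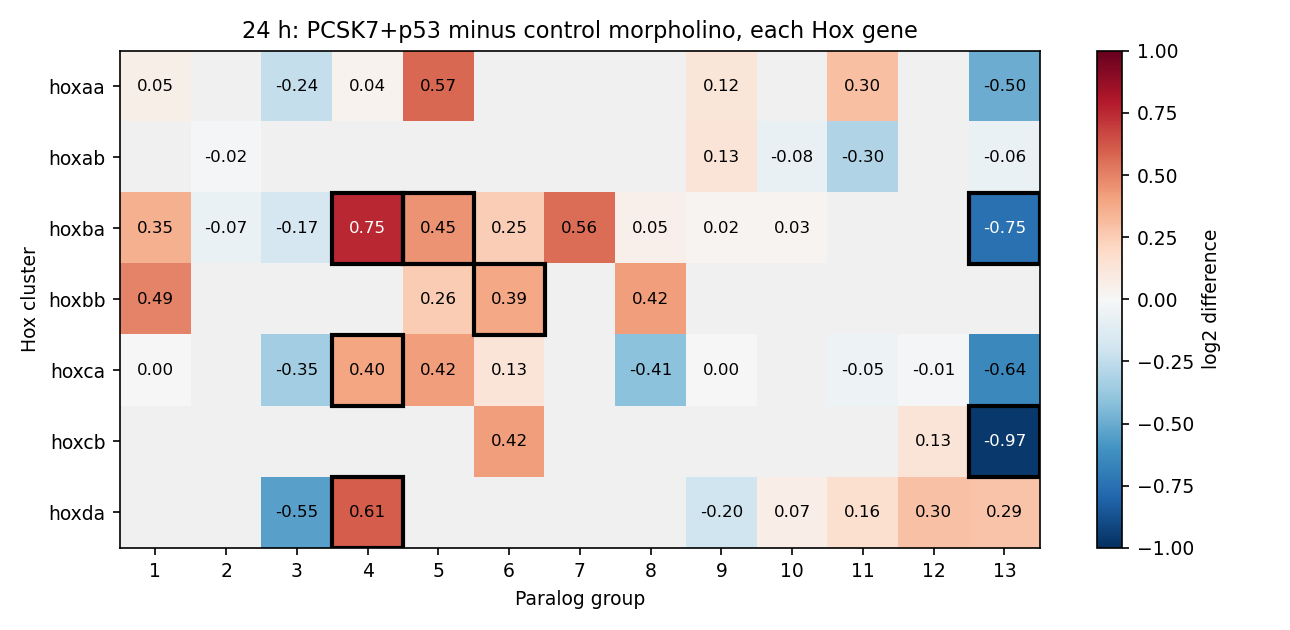
Log2 difference at 24 h, PCSK7 plus p53 minus control morpholino, for each Hox gene by cluster (rows) and paralog group (columns). Boxes mark the 7 called genes, and pale grey cells have no gene measured here. The columns of groups 4 to 7 hold 13 values above 0, and group 13 holds 5 of 6 below 0.

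Paralog group 4 had the most calls. A call favours groups that do not overlap, so overlap is given below as description only. The gene hoxb4a, a marker of the posterior hindbrain, read 25.2, 25.6 and 25.5 percent in PCSK7 plus p53 embryos, against 15.5, 14.4 and 15.4 percent in control embryos. The groups did not overlap, and hoxb4a rose 1.69-fold (log2 0.75, SE 0.07, limma adjusted p = 2.58e-05). Its paralog hoxd4a, also a hindbrain gene, read 54.6, 50.7 and 50.9 percent, against 36.1, 33.5 and 33.0 percent in control embryos. It rose 1.52-fold (log2 0.61, SE 0.07, limma adjusted p = 0.000115), and all 3 of its probes were called higher. For hoxc4a the values were 97.4, 106.9 and 100.4 percent in PCSK7 plus p53 embryos, against 76.8, 72.3 and 82.5 percent in control embryos. It rose 1.32-fold (log2 0.40, SE 0.08, limma adjusted p = 0.00234), on all 4 probes. The fourth member, hoxa4a, differed by 0.04 (SE 0.07) on the probe that represents it, with overlapping groups. Its other probes gave 0.33 (SE 0.23) and 0.32 (SE 0.12), and the probe at 0.32 was called. The probe at 0.33 had the highest signal of the 3 at 24 h.

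In paralog groups 5 and 6, hoxb5a read 124, 125 and 132 percent in PCSK7 plus p53 embryos, against 97.9, 88.5 and 93.5 percent in control embryos. The 3 higher values were all in PCSK7 plus p53 embryos. This trunk gene rose 1.36-fold (log2 0.45, SE 0.06, limma adjusted p = 0.000324), again on all 3 probes. The gene hoxb6b read 80.7, 77.2 and 79.1 percent, against 65.1, 55.4 and 61.3 percent in control embryos, without overlap. It rose 1.31-fold (log2 0.39, SE 0.09, limma adjusted p = 0.00737), on both probes. The other 6 genes of groups 5 and 6 lay between 0.13 for hoxc6a and 0.57 for hoxa5a and were not called. The only member of group 7, hoxb7a, read 159, 149 and 142 percent in PCSK7 plus p53 embryos, against 113, 93.1 and 99.8 percent in control embryos, a difference of 0.56 (SE 0.27, limma adjusted p = 0.111).

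Over all kept probes, those that represent the genes included, the side was the same. Paralog groups 4 to 7 had 31 kept probes, all 31 with a difference above 0, from 0.04 to 0.94, and 17 of them were called higher. The 31 include the 13 probes that represent the genes, and the 17 include the 5 gene calls given above. These probes are not independent, since several read the same transcript. Over all 112 kept Hox probes 21 were called higher (background 21.2% of 35010 probes) and 6 lower (background 25.1%).

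**Figure D2:**
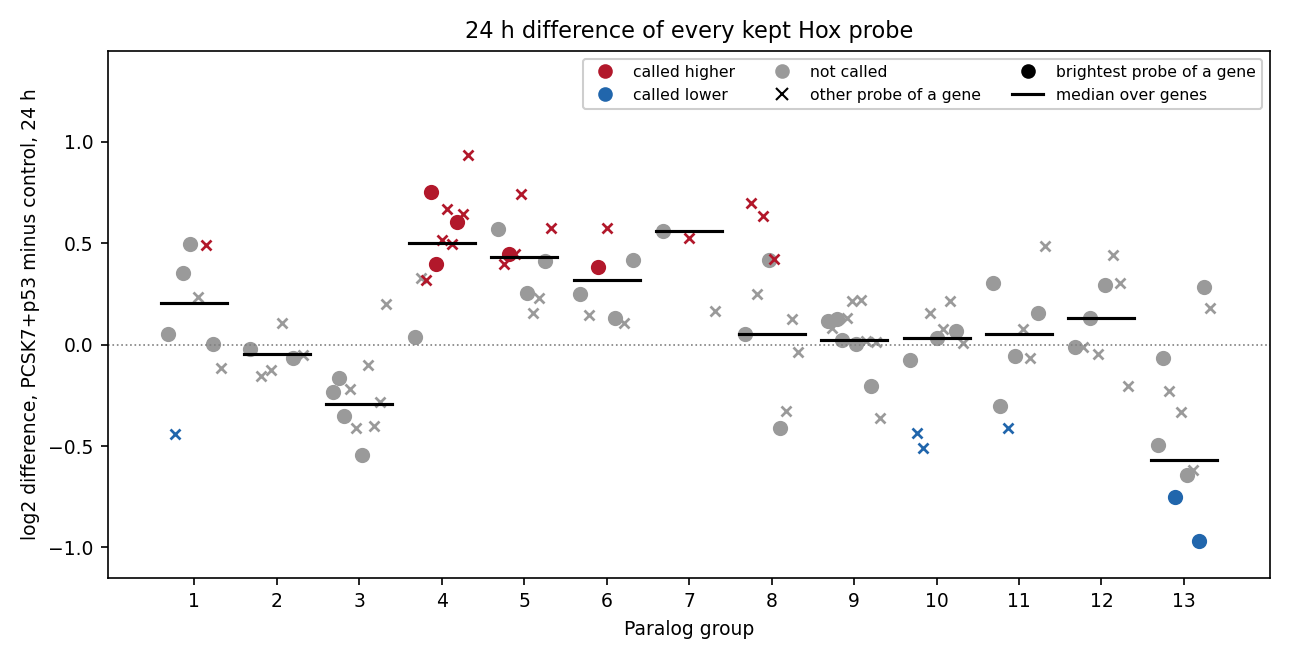
Log2 difference at 24 h, PCSK7 plus p53 minus control morpholino, for each of the 112 kept Hox probes by paralog group. Circles are the probe that represents a gene, crosses its other probes, colours the calls, and bars the median over genes. All 31 probes of groups 4 to 7 lie above 0, and group 13 has 8 of 10 below 0.

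Group 13 held both genes that were called lower. The gene hoxc13b, with 1 probe, read 13.2, 15.1 and 16.4 percent in PCSK7 plus p53 embryos, against 26.2, 29.7 and 31.3 percent in control embryos. The groups were well apart, and hoxc13b fell by 0.97 on the log2 scale (SE 0.10, limma adjusted p = 5.72e-05), the largest called difference of a Hox gene at 24 h. The gene hoxb13a read 34.8, 46.7 and 47.1 percent, against 62.0, 73.8 and 79.6 percent in control embryos. It fell by 0.75 (SE 0.18, limma adjusted p = 0.0065) on 1 of 2 probes, and the second gave -0.33 (SE 0.33). Without overlap but also without a call, hoxc13a read 272, 312 and 302 percent, against 426, 470 and 491 percent in control embryos (log2 -0.64, SE 0.52, limma adjusted p = 0.342). Likewise hoxa13a was at -0.50 (SE 0.20, limma adjusted p = 0.0719), and hoxa13b was at -0.06. With only the 24 h groups in the fit, hoxc13a had an SE of 0.09 and was called lower (limma adjusted p = 0.00217). So was hoxa13a (SE 0.07, limma adjusted p = 0.00287). The exception was hoxd13a, which works in fin development and lay on the other side of 0 at 0.29 (SE 0.17).

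**Figure D3:**
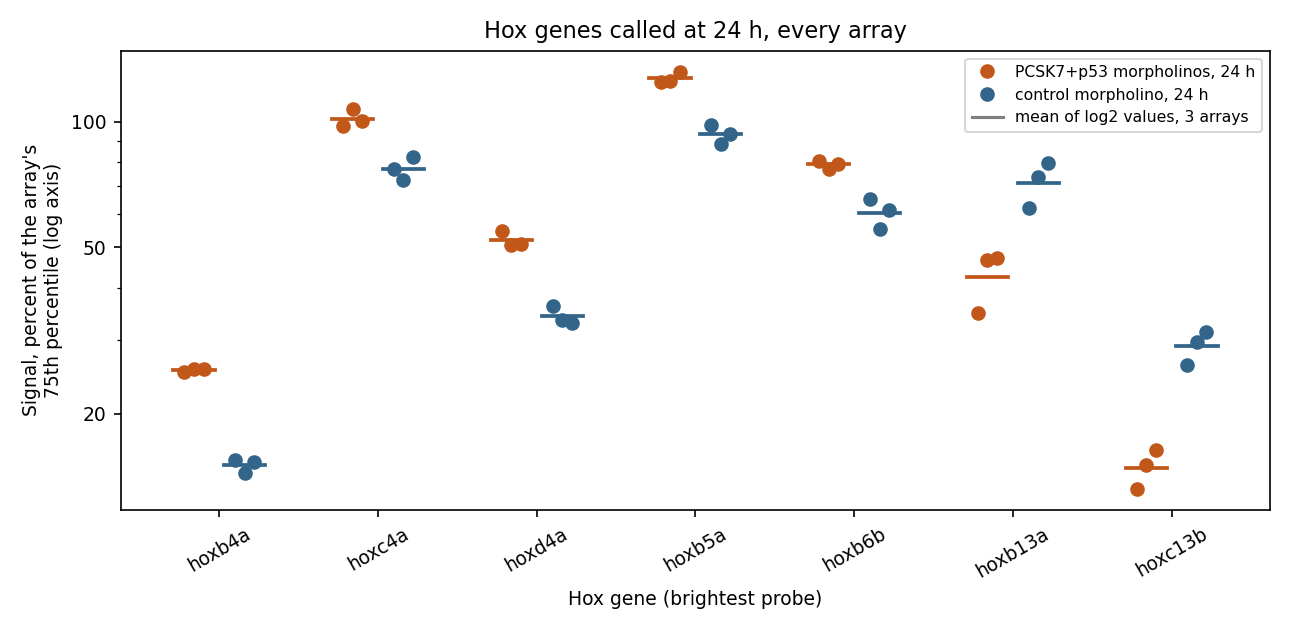
Signal of the 7 Hox genes called at 24 h on every array, as a percent of the array's 75th percentile on a log axis, with PCSK7 plus p53 embryos left of control embryos and bars at the mean of the log2 values. The genes were chosen by their calls, which favours groups that do not overlap, and no gene has overlapping groups.

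The 4 genes of paralog group 3, which pattern the hindbrain in front of group 4, ran from -0.17 to -0.55 for hoxd3a. On the probe that represents it, hoxd3a was larger in size than hoxa4a, hoxc6a or hoxb6a (0.25). By the mean of its 5 kept probes it was at -0.23, no larger in size than hoxa4a by the same measure (0.23). Another probe of hoxd3a was at 0.20. In group 1, whose genes act in the hindbrain further forward, the differences ran from 0.00 for hoxc1a to 0.49 for hoxb1b. The other probe of hoxa1a, with the higher signal at 24 h, was at -0.44 and was called lower. The 15 genes of groups 9 to 12 ranged from -0.30 to 0.30, and none was called. Their 37 kept probes ran from -0.51 to 0.49, with 3 called lower (background 25.1% of single probes) and 0 higher (background 21.2%). Both shares were below the background, and 2 of the lower ones were other probes of hoxa10b. Group 8 was mixed, with hoxb8b at 0.42, hoxb8a at 0.05 and hoxc8a at -0.41, although 2 of the other 3 probes of hoxb8a were called higher, at 0.70 and 0.64. Across paralog groups 4 to 13, the paralog number and the difference had a rank correlation of -0.66 over 37 genes that share the same 6 arrays, and over all 47 genes, groups 1 to 3 included, it was -0.28. Both are descriptions, and the range from 4 to 13 was chosen after the values were seen. By cluster, all 4 hoxbb genes were above 0 (median 0.40) and 4 of 5 hoxab genes below 0 (median -0.06).

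The number of calls at 24 h depended on the fit. With only the 24 h groups in the fit, 22 of the 47 Hox genes were called, 14 higher (background 23.4%) and 8 lower (background 27.6%). They included 9 of the 13 genes of groups 4 to 7, all higher, and 5 of the 6 genes of group 13, of which 4 were lower and hoxd13a was higher. The other calls were 2 higher in group 1, 2 lower in group 3, 1 higher and 1 lower in group 8, and 1 higher and 1 lower in groups 9 to 12. Calls were thus not confined to groups 4 to 7 and 13. Subtracting the local background gave 24 calls, 15 higher (background 20.7%) and 9 lower (background 37.4%). In both of these alternatives the share called higher was above its background and the share called lower was below it. None (0) was called by limma after normexp background correction, nor at an unadjusted p under 0.05, but that correction put the background mean of 3 arrays at -578, -910 and -1111 intensity units. As reported, and in every alternative that gave them a value, the medians of groups 4, 5, 6 and 7 stayed above 0 and those of groups 3 and 13 below 0. All alternatives use the same arrays. Dropping the filter, fitting only the 24 h groups or adding a block leaves these medians as they are. The kept side is therefore no independent test.

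At 6 h most calls were lower: 9 of the 15 Hox genes measured were called lower in PCSK7 plus p53 embryos (60.0%; background 29.4% of 11179 genes) and 1 higher (6.67%; background 35.5%). The median over these 15 genes was -0.61, against 0.04 over all genes measured. Among the 15, hoxb7a and hoxc12b were above background throughout the control group alone, and hoxc12a throughout the PCSK7 plus p53 group alone. Passing through one group alone favours a higher value there. Both genes with the largest falls, hoxb7a and hoxb8a, lie next to each other in number in the hoxba cluster and act in the trunk. Among the rest were 4 of the 5 hoxda genes measured, which in later development work in the fins and the posterior trunk.

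The gene hoxb7a read 0.560, 0.496 and 0.232 percent in PCSK7 plus p53 embryos, against 2.88, 2.65 and 2.41 percent in control embryos. Only the control arrays were above background, so it was at least 2.73-fold lower (fitted log2 -2.72, SE 0.27, limma adjusted p = 1.65e-05). For hoxb8a the values were 8.18, 12.4 and 15.1 percent, against 54.5, 50.9 and 45.3 percent in control embryos, far apart and all above background. It fell by 2.12 (SE 0.19, limma adjusted p = 9.36e-06), and by 1.02 on its second measured probe. The authors' deposited table does not hold the probe that represents hoxb8a. It holds 1 other, with a fall of 0.57 (limma adjusted p = 0.0455). By its 24 h difference this was a probe above background on no 6 h array, so that fall gives no level.

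The gene hoxb2a, which patterns the rhombomeres of the hindbrain, read 17.1, 19.5 and 19.8 percent in PCSK7 plus p53 embryos, against 41.1, 34.0 and 46.9 percent in control embryos. It fell by 1.11 (SE 0.11, limma adjusted p = 1.7e-05), and by 1.06 on its other probe. Another anterior gene, hoxa4a, read 22.2, 21.4 and 22.6 percent, against 30.8, 30.7 and 31.5 percent in control embryos. It fell by 0.49 (SE 0.07, limma adjusted p = 0.000143) on the 1 of 3 probes measured at 6 h. On another probe, in the authors' deposited table, the difference was -0.28 (limma adjusted p = 0.343). That probe was above background on no 6 h array, so the difference gives no level.

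Of the posterior hoxda genes, hoxd13a read 5.16, 3.42 and 3.14 percent in PCSK7 plus p53 embryos, against 7.57, 6.03 and 7.95 percent in control embryos. Without overlap, it fell by 0.90 (SE 0.17, limma adjusted p = 0.0013) on both probes. Its neighbour hoxd12a read 3.73, 2.41 and 2.18 percent, against 5.50, 4.22 and 4.87 percent in control embryos, and fell by 0.84 (SE 0.18, limma adjusted p = 0.0027). The groups overlapped for hoxd9a, at 51.1, 18.5 and 29.5 percent in PCSK7 plus p53 embryos, against 69.4, 48.1 and 76.2 percent in control embryos. It fell by 1.06 (SE 0.30, limma adjusted p = 0.0119), on all 3 probes, but was not called with only the 6 h groups in the fit (adjusted p = 0.0619). They overlapped for hoxd11a too, at 8.45, 4.00 and 3.03 percent in PCSK7 plus p53 embryos, against 8.19, 7.35 and 9.19 percent in control embryos. Its fall of 0.81 (SE 0.30, limma adjusted p = 0.0378) was called on 1 of 2 probes. That call was lost with only the 6 h groups in the fit (0.117) and on leaving out any control 6 h array (replicate 1, 0.076; replicate 2, 0.053; replicate 3, 0.103) or PCSK7 plus p53 6 h replicate 2 (0.111) or 3 (0.138).

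The gene hoxc12b was near background, at 1.51, 1.097 and 1.36 percent in PCSK7 plus p53 embryos, against 1.56, 2.67 and 1.89 percent in control embryos. It was at least 1.52-fold lower (log2 -0.61, SE 0.18, limma adjusted p = 0.0128), since 1 PCSK7 plus p53 array was not above background. The call was lost with only the 6 h groups in the fit (0.0635) and without PCSK7 plus p53 6 h replicate 2 (0.0509). The other probe, in the authors' deposited table, gave -0.08 (limma adjusted p = 0.221). It was above background on no 6 h array, so that value gives no level. The 1 gene that rose, hoxc6a of the trunk, read 58.2, 60.2 and 72.0 percent in PCSK7 plus p53 embryos, against 37.1, 38.1 and 30.1 percent in control embryos. Its difference was 0.86 (SE 0.11, limma adjusted p = 7.55e-05), and 0.47 (adjusted p = 0.103) when both of its probes were averaged. The 5 measured genes without a call, hoxc1a, hoxd10a, hoxc11a, hoxc12a and hoxb13a, lay between -0.49 and 0.07.

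**Figure D4:**
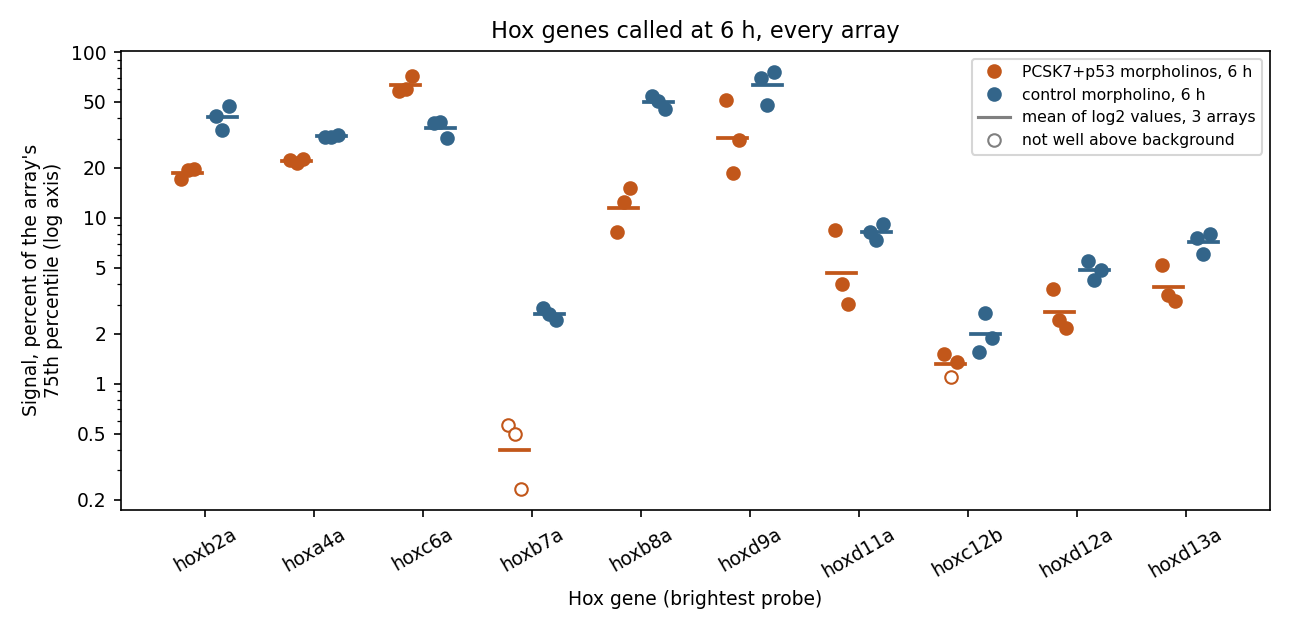
Signal of the 10 Hox genes called at 6 h on every array, as a percent of the array's 75th percentile on a log axis, with PCSK7 plus p53 embryos left of control embryos and bars at the mean of the log2 values. Open circles were not well above background. Groups overlap for hoxd9a and hoxd11a, and hoxc6a alone is higher in PCSK7 plus p53 embryos.

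The 22 Hox genes above background on no 6 h array also sat lower in PCSK7 plus p53 embryos, by a median of -0.60, and 19 of them had an adjusted p under 0.05. The 1222 genes of the whole array in the same state had a median of -0.53, with 600 lower and 57 higher. These dim signals are divided by a 75th percentile that was 0.58 higher, on the log2 scale, on PCSK7 plus p53 arrays at 6 h. They give no level and are left out of the counts at 6 h. The part of brightness in the differences of the measured genes was not tested. After normexp correction none (0) of the 15 genes was called by limma, and 9 were lower at an unadjusted p under 0.05. With the local background subtracted all 15 were called, 1 higher and 14 lower, and the share over all genes in that setting is not given.

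Probes of the same Hox gene often did not read the same thing at 6 h. Of the 17 members with any probe above background on all arrays of a 6 h group, 5 had all their kept probes above background and 12 only some. For hoxb8a, the probe that represents the gene was 1.68 higher at 24 h than at 6 h in control embryos. Another was at least 8.55 higher at 24 h than at 6 h on the log2 scale, a bound because it had no 6 h signal above background. It read 655, 703 and 651 percent in PCSK7 plus p53 embryos and 607, 502 and 588 percent in control embryos at 24 h. The probes of hoxa4a differed in the same way, with 1.96 and at least 7.30, and so did those of hoxc6a, with 0.75 and at least 4.44. For hoxc4a and hoxc8a only a dimmer probe was measured at 6 h, and it was lower in PCSK7 plus p53 embryos by a fitted 1.40 and 0.83. The value of hoxc4a is no exact fall, since 1 PCSK7 plus p53 array was not above background. The probes of hoxb2a, hoxd11a and hoxd13a differed by at most 0.28 in their change with time. Over single probes, 18 of the 26 measured at 6 h were called lower (background 29.4% of 30846) and 1 higher (background 32.2%). Some probes counted as measured through the control group alone, among them probes of hoxc4a, hoxd11a and hoxd12a, which favours a lower value.

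**Figure D5:**
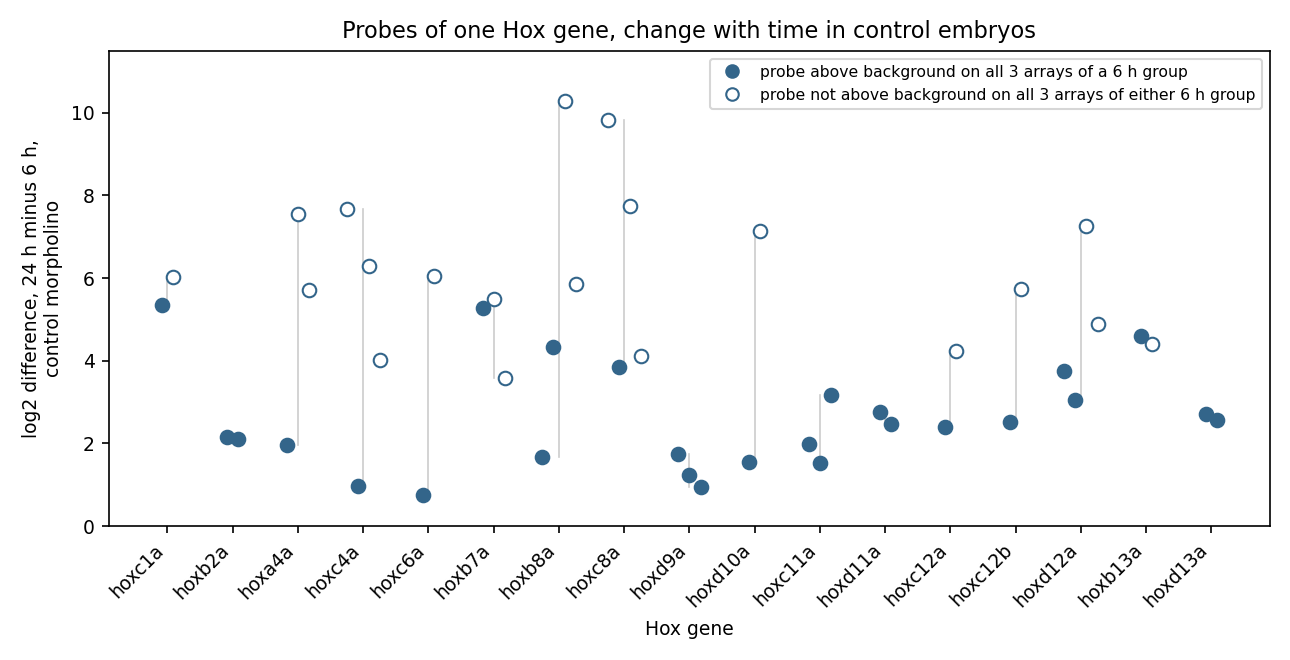
Log2 difference between 24 h and 6 h in control embryos for each kept probe of the 17 Hox genes with a probe measured at 6 h. Filled circles were above background on all 3 arrays of a 6 h group, and open circles were not, so that where they lie is no exact difference. The probe that represents hoxb8a lies at 1.68, and the difference of another of its probes is at least 8.55. The probes of hoxb2a lie at 2.11 and 2.15.

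The test of whether the effect of the morpholinos differed between 24 h and 6 h called 24 of 47 Hox genes, 20 with a higher difference at 24 h (background 22.4%) and 4 with a lower one (background 27.9%). Of the 15 measured at both times, 7 were higher (background 22%) and 2 lower (background 31%). Among the 7, hoxb7a and hoxc12b counted as measured at 6 h through the control group alone, which favours a higher difference of effects. The larger ones are genes already described, with hoxb7a at 2.01 or more (fitted 3.28, SE 0.38, on a 6 h signal not above background in PCSK7 plus p53 embryos), hoxb8a at 2.17 (SE 0.27), hoxd13a at 1.19 (SE 0.25), hoxd12a at 1.14 (SE 0.26) and hoxb2a at 1.04 (SE 0.15). In each of these the difference at 6 h was called lower and that at 24 h was not called on the probe that represents the gene. Other probes of hoxb7a and hoxb8a were called higher at 24 h. With only the 24 h groups in the fit, hoxb7a (adjusted p = 0.00403), hoxd12a (0.0435) and hoxd13a (0.0314) were called higher at 24 h. On the other side, hoxb13a was at -0.81 (SE 0.25), lower at 24 h and at 0.07 at 6 h, and hoxc6a was at -0.73 (SE 0.15).

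The remaining 15 calls rest on 6 h signals that were not above background on all arrays of either group. The median of dim signals over the whole array was lower in PCSK7 plus p53 embryos at 6 h, as given above. The size of these differences of effects is therefore not a value of the gene and is left out. Among them were hoxb4a and hoxd4a, whose 24 h difference was called by itself. The gene hoxb1b, active in the early hindbrain of the zebrafish, read 203, 168 and 170.0 percent in PCSK7 plus p53 embryos, against 136, 118 and 130.1 percent in control embryos, at 24 h. At 6 h it read 0.303, 0.220 and 0.386 percent, against 1.19, 0.888 and 0.756 percent in control embryos, all below background. For hoxc6b the 24 h values were 62.9, 57.2 and 53.8 percent, against 46.1, 40.8 and 43.3 percent in control embryos. At 6 h they were 0.811, 0.474 and 0.440 percent, against 1.79, 1.59 and 1.51 percent in control embryos, with 1 control array above background. For hoxc5a they were 63.8, 60.0 and 54.2 percent, against 45.5, 40.6 and 47.3 percent in control embryos, at 24 h. For hoxa13b the 24 h groups overlapped, at 9.91, 9.48 and 9.97 percent in PCSK7 plus p53 embryos against 9.57, 10.5 and 10.6 percent in control embryos. Its call was lost with the replicate block (adjusted p = 0.0536) and on leaving out any of 6 arrays.

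The gene hoxb10a was called the other way. At 6 h it read 1.24, 1.39 and 0.746 percent in PCSK7 plus p53 embryos, 2 of them above background, against 0.354, 0.369 and 0.399 percent in control embryos, none above. At 24 h the groups overlapped, at 234, 243 and 218 percent against 238, 199.7 and 244 percent in control embryos. Its sign turned under both other background corrections.

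Of the genes that act with or upstream of Hox genes, 51 were measured at 6 h, and 15 were called higher (29.4%; background 35.5%) and 18 lower (35.3%; background 29.4%). At 24 h 7 of 64 were higher (10.9%; background 21.4%) and 9 lower (14.1%; background 25.9%). The counts below describe single lists, and nothing particular to a list is read from them. Retinoic acid, made from vitamin A, switches on anterior Hox genes, and of 12 measured genes of its pathway 6 were higher and 6 lower at 6 h, with a median of 0.19 against 0.04 over all genes. The synthetic enzyme aldh1a2 was higher by 4.99 (SE 0.21) and the retinol dehydrogenase rdh10a by 1.84 (SE 0.08). Of the degrading enzymes, cyp26b1 and cyp26c1 were lower by 1.48 (SE 0.11) and 1.43 (SE 0.28), and cyp26a1 is not given by value. Single values are given for called genes with the largest changes and do not stand for the list. No direction of retinoic acid signalling is read from them. At 24 h 1 of 16 was higher (crabp2a, a retinoic acid binding protein, 0.38) and 1 lower (cyp26b1, -0.53), and the median was 0.01, against -0.03 over all genes. Among Hox activators and linked genes, 2 of 5 measured at 6 h were higher and 2 lower (median -0.16). The gene cdx4, which switches on trunk Hox genes, was higher by 4.69 (SE 0.27), with 2 of 3 control arrays above background, and the cluster-linked eve1 by 3.89 (SE 0.21). The 2 lower genes are not given by value. At 24 h 0 of 10 were higher and 1 was lower, gdf11 (-0.46, SE 0.14), a ligand of the TGF-beta family that acts on posterior Hox genes in the mouse (list median 0.16). At an unadjusted p under 0.05, 1 of the 10 was higher.

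For the next lists the background over all genes was 35.5% higher and 29.4% lower at 6 h, and 21.4% and 25.9% at 24 h. Of the Hox cofactors, the Pbx and Meis proteins that bind DNA together with Hox proteins, 4 of 11 measured were higher and 3 lower at 6 h (median 0.06). They included meis3 at 3.02 (SE 0.16), although 1 of its 3 probes was called lower, and pbx1b at -1.25 (SE 0.13). At 24 h 1 of 13 was higher (meis3, 0.52) and 2 were lower, pbx4 (-0.44) and pbx3b (-0.51), with a median of -0.04. Of 4 hindbrain regulators measured at 6 h 1 was higher and 2 lower (median -0.49), and at 24 h none (0) of 6 was called by limma, with 1 higher at an unadjusted p under 0.05. Chromatin regulators of Hox genes, the Polycomb and Trithorax families, had 2 higher and 5 lower of 19 at 6 h (median -0.11), and 5 higher and 5 lower of 19 at 24 h (median 0.02). At 24 h suz12a, a Polycomb subunit, was at -0.68 (SE 0.06) and kdm6al, a demethylase of the Polycomb mark, at 0.46 (SE 0.07).

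Markers of tissues where Hox genes are active or silent moved as follows, and their part in the Hox results was not tested. List medians ran from -0.15 (somites and muscle) to 1.56 (tail bud) at 6 h and from 0.01 (hindbrain) to 0.48 (neural crest) at 24 h. Over all 8 lists 29 of 54 measured markers were higher at 6 h (53.7%; background 35.5%) and 7 lower (13%; background 29.4%), and 20 of 68 were higher at 24 h (29.4%; background 21.4%) and 6 lower (8.82%; background 25.9%). At 6 h 7 of 10 tail bud and presomitic mesoderm markers were higher and 1 lower, and their summed signal was 3853 to 3983 percent on PCSK7 plus p53 arrays and 2293 to 2462 percent on control arrays. None of these 10 was below background. Of gastrula organizer and mesendoderm markers 7 of 11 were higher and 0 lower (summed 15938 to 17104 percent and 8342 to 10546 percent). Forebrain and midbrain markers, where Hox genes are silent, were 5 higher and 2 lower of 9 (summed 689 to 734 percent and 492 to 589 percent), with pax6a, rx3, lhx2b and dmbx1a below background. Spinal neuron markers were 4 higher and 1 lower of 7, lateral plate, fin bud and kidney markers 2 and 0 of 3, hindbrain markers 1 and 1 of 5, somite and muscle markers 2 and 1 of 5, and neural crest markers 1 and 1 of 4.

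At 24 h, against the same background of 21.4% higher and 25.9% lower, hindbrain markers had 0 of 7 called by limma and 0 at an unadjusted p under 0.05, with a summed signal of 756 to 810 percent on PCSK7 plus p53 arrays and 720 to 751 percent on control arrays. Tail bud markers were 1 higher (tbxta, 0.51) and 1 lower (wnt3a, -0.82) of 10, summed 1179 to 1483 percent and 1094 to 1169 percent. Spinal neuron markers were 3 higher and 0 lower of 9, summed 784 to 881 percent and 667 to 714 percent. Forebrain and midbrain markers were 5 higher and 1 lower of 13, and neural crest markers 3 and 1 of 5. Somite and muscle markers were 2 higher and 1 lower of 8. Their sum, 20005 to 23105 percent on PCSK7 plus p53 arrays and 24055 to 31030 percent on control arrays, was the only list sum that was lower. Lateral plate, fin bud and kidney markers were 1 higher and 1 lower of 6, and organizer and mesendoderm markers 5 and 1 of 10.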

How the data were processed

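Per the file headers, the deposited scanner files hold intensity on a linear scale, from which Agilent Feature Extraction had taken spot background and spatial trends (10.7.1.1 and 10.7.3.1, or 10.7.1 in the submitters' processing notes). The authors' deposited table of 19838 probes, intensity with a median of 172 in every column, served as an alternative, and its normalization is not stated in the labels or headers. Unflagged spots of a probe were averaged, taken to log2 and set relative to the 75th percentile of their array. Of 43603 probes 36686 were kept, each well above background throughout at least 1 group. No Hox spot was saturated (0). Names came through RefSeq accessions and a RefSeq table of assembly GRCz12tu, whose coordinates are not used because the array's builds differ.

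Tests were two-sided in limma 3.58.1 with R 4.3.3 (lmFit, eBayes), with 1 mean per group over 12 arrays, 8 residual degrees of freedom and Benjamini-Hochberg adjustment over all kept probes. The code was first tested on simulated data. A gene counts as measured where its probe was above background throughout a group compared. In an "at least" fold, each array of the dim group enters with the probe's own signal or with the lowest signal detected on that array, whichever is higher. The number of arrays limits the precision.

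Array values are given for members called in a morpholino comparison or in the difference of effects, the 12 largest where more were called. The members and the 5 pathway and 8 marker lists were chosen with earlier results of these data known. Replicate numbers were not used to pair samples in the main fit. Deviations from group means correlated by -0.04 to 0.02 between arrays of the same number. Control arrays of the same number shared a slide over time. Their correlations were 0.01 to 0.02, against -0.01 to 0.003 between different numbers. Alternatives changed the normalization, background, signals, filter, gene value, fit, block and arrays. Of the columns of sample values, 0 could not be assigned.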

Additional observations from a re-analysis of the deposited data

Results flagged for a closer look

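For 9 Hox genes measured at both times, limma's test of the difference itself found that the effect of the morpholinos at 24 h was not that at 6 h. The 7 with a higher effect at 24 h were hoxb7a (fitted 3.28, of which 2.01 is the bound, adjusted p = 0.000103), hoxb8a (2.17, 0.000153), hoxd13a (1.19, 0.00303), hoxd12a (1.14, 0.00515), hoxb2a (1.04, 0.00045), hoxc12b (0.74, 0.0329) and hoxa4a (0.53, 0.00134), all as log2 differences of effects with adjusted p from limma. In each of them the gene was lower in PCSK7 plus p53 embryos at 6 h and had no call at 24 h on the probe that represents it. Other probes of hoxb7a, hoxb8a and hoxa4a were called higher at 24 h in the same fit. With only the 24 h groups in the fit, hoxb7a, hoxd12a and hoxd13a were called higher at 24 h (adjusted p = 0.00403, 0.0435 and 0.0314 from limma). The bound on hoxb7a is given because its 6 h signal was above background on no PCSK7 plus p53 array, and hoxc12b was above it on 2 of 3. Both counted as measured at 6 h through the control group alone, which favours a higher difference of effects. The 2 with a lower effect at 24 h were hoxb13a (-0.81, adjusted p = 0.0228 from limma), which was called lower at 24 h and not at 6 h, and hoxc6a (-0.73, 0.00293), which was called higher at 6 h and not at 24 h. Array brightness differed between morpholinos by 0.31 at 24 h and 0.58 at 6 h on the log2 scale, and its part in these differences was not tested.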

How the results depend on the processing

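In repeats of the log2 differences of named genes under alternatives, 570 kept direction and side of the threshold, 49 kept direction but not the call, and 2 turned, hoxb10a in the difference of effects with normexp (1.29) and with the local background subtracted (0.56). Leaving out single arrays gave 8 to 11 calls at 6 h, 7 to 8 at 24 h, 20 to 30 in the difference of effects, 47 over time in control and 46 in PCSK7 plus p53 embryos. The replicate block gave 10, 7, 22, 47 and 46, and of the calls named it ended that of hoxa13b alone. The slide correlation was -0.12. Normexp with offset 50, on spot and local background medians, gave limma counts of 0 at 6 h and 24 h and 0 in the difference of effects (9, 0 and 3 at an unadjusted p under 0.05) and 22 over time in control embryos. Subtracting the local background, chosen after seeing that normexp failed on 3 arrays, called all 15 genes measured at 6 h, 1 higher and 14 lower. It gave 24 calls at 24 h and 39 in the difference of effects (39 higher and 1 lower at an unadjusted p under 0.05). The shares over all genes in this setting are not given for 6 h or the difference of effects, so no excess is read from these counts. The cause of the changes in the counts was not tested. With probes above background on all 12 arrays, which leaves 13 members, 1 was called at 24 h, 8 in the difference of effects, 13 over time in control and 12 in PCSK7 plus p53 embryos. With only the groups compared in the fit, 22 were called at 24 h. Counting only members measured at both times, also chosen after seeing the data, left 9 differences of effects. The limit on 6 h values is signal over background, since 32 of 47 members were not measured then.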
